A study of Homo sapiens with 2 samples.

Results

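The genes described here build the replication machinery and run the step from G1 into S phase. They are a list of 42 protein-coding genes, among the 19862 protein-coding records that RefSeq places on the main chromosomes of GRCh38 (hg38). All 42 were found in that table by symbol. A gene was assigned every peak summit that lay inside its record or within 1 kb of either end of the record. The peaks come from chromatin of CAL-27, a human tongue squamous carcinoma cell line grown as spheres, pulled down with an antibody against TCF4. There was 1 TCF4 antibody library and 1 IgG antibody library, both from CAL-27 spheres, of which IgG was not analysed here. No value below therefore has a replicate, no test or p-value is given, and signal that does not depend on the antibody was not separated from TCF4 binding. "TCF4" can stand for the E protein gene of that name or, as an older alias, for the Wnt effector TCF7L2, and the labels do not say which.

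Before S phase, the origin recognition complex, CDC6 and CDT1 load the MCM2 to MCM7 ring onto DNA as an inactive helicase. Cyclin E with CDK2, together with the DBF4-dependent kinase CDC7, then starts it by recruiting CDC45 and the GINS complex. Polymerases alpha, delta and epsilon copy the DNA, delta and epsilon being held by the PCNA clamp that replication factor C loads. Most of these genes are textbook targets of E2F factors, whose release from the retinoblastoma protein switches them on late in G1.

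The deposited list holds 26642 peaks. The fold, p and q of each peak are the authors' deposited values. Fold enrichment is the ratio of fragments at the summit to a local background, each with 1 added. The fragments at each summit were solved from that fold and the deposited p. Peaks in the list had a median of 10 fragments and none had fewer than 5, so a gene without a peak is one where binding was not detectable at this depth. Counting intervals given below are exact Poisson intervals at 95% and cover counting error only. Peaks carry no expression level. Of the squamous markers used to check the cell line, 4 of 5 had a summit at an end (KRT5, KRT14, KRT6A and LAMB3, but not TP63), against 41.5% of all protein-coding genes. None of 3 leukocyte, 2 endothelial and 2 hepatocyte markers did, though the leukocyte marker PTPRC had 1 summit inside its record. The strongest end peaks of the 4 squamous genes had folds of 4.16 to 6.20. Their local backgrounds were 4.26 to 8.38 fragments, above the 90th percentile of all peaks (2.96). That of KRT5 lay 4910 bp past its start. So few markers say little about the cell type.

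Promoter sequences are shown for the 6 members with the strongest peak whose summit lay in the RefSeq promoter window, to let the letters under these peaks be read. Each line gives the 250 bases before the RefSeq start (GRCh38.p14, written 5′ to 3′ along the gene's own strand). Capitals mark E2F-type matches (the strings TTCGCGC and TTGGCGC, to which TTCCCGC and TTGGCGG were later added) and CCAAT boxes, on either strand, that lie wholly before the start. The windows are chr11:65261712-65261961 (plus strand), chr19:4402390-4402639 (plus), chr20:5126623-5126872 (minus), chr12:132687343-132687592 (minus), chr7:100101398-100101647 (minus) and chr17:40287629-40287878 (plus).
POLA2: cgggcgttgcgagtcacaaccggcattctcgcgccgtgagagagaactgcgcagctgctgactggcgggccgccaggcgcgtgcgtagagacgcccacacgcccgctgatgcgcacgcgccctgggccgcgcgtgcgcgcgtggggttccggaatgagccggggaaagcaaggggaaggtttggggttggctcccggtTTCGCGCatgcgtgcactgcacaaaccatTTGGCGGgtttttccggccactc
CHAF1A: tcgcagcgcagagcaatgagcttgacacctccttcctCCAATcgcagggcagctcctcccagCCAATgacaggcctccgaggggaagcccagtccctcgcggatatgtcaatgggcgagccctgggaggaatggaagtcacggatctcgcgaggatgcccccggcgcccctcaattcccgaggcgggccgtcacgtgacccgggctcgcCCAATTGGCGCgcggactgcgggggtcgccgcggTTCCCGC
PCNA: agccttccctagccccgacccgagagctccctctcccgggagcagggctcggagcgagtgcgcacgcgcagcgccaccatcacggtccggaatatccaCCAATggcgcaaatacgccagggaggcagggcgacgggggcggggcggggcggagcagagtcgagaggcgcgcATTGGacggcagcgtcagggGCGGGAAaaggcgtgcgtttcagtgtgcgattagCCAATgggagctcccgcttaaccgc
POLE: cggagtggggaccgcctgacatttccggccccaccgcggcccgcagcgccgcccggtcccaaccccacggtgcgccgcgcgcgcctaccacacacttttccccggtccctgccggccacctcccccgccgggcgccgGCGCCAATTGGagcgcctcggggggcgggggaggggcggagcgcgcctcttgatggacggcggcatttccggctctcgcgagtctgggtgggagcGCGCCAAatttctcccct
MCM7: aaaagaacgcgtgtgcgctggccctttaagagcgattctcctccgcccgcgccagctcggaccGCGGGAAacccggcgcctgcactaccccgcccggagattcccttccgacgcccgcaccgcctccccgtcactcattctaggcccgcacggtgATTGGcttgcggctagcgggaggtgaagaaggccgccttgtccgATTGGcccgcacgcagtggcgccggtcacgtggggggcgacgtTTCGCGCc
CDC6: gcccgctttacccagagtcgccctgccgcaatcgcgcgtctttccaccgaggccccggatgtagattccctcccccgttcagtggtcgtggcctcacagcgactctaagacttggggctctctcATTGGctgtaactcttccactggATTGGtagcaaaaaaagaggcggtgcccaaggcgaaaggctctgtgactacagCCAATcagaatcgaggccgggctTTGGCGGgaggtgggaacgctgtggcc

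Of these 6 windows, 5 held both an E2F-type match and a CCAAT box, and POLA2 held E2F-type matches alone. That count includes the strings added after the promoters were read. With TTCGCGC and TTGGCGC alone, CHAF1A, POLE and MCM7 held both before the start, and PCNA and CDC6 did not. The share with both was not counted over all promoters. In POLA2 they began at -52 and -23, counted from the start to the first base of the match. In CHAF1A, a CCAAT box at -41 ran into an E2F-type match at -37, and further CCAAT boxes began at -213 and -188. PCNA had CCAAT boxes at -152, -79 and -25 and 1 of the added E2F-type strings at -59. POLE had an E2F-type match and a CCAAT box overlapping at -113 and -110, with another E2F-type match at -18. MCM7 had E2F-type matches at -187 and -8 and CCAAT boxes at -95 and -51. CDC6 had CCAAT boxes at -126, -103 and -50, 1 of the added strings at -27, and TTGGCGC past the start at 9. A match is a description of letters, not evidence that a factor sits there.

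For comparison, these are the same 250 bases for the first 2 genes, in alphabetical order, that had no summit at a start: CCNE1 at chr19:29811741-29811990 (plus strand) and CDT1 at chr16:88803539-88803788 (plus).
CCNE1: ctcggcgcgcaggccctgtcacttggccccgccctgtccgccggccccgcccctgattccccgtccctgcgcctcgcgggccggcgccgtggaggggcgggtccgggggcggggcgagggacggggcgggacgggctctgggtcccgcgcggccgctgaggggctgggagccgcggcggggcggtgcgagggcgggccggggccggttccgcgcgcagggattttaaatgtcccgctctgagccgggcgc
CDT1: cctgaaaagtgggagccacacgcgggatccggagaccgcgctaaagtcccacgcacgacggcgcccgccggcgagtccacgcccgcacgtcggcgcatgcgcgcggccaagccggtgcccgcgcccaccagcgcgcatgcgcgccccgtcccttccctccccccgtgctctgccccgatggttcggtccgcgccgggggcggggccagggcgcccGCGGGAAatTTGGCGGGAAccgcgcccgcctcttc

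CCNE1 held neither element, and had GC boxes (GGGCGG) instead, 7 in its 300-base window. CDT1 held E2F-type letters at -35, -26 and -23 with no CCAAT box. E2F-type letters were thus present in a promoter without a called peak as well as in those above.

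Replication and G1/S genes had a peak at an end in 30 of 42 cases (71.4%), against 41.5% of all 19862 protein-coding genes. Counting summits inside the record too, 33 of 42 (78.6%) had a peak, against 54.9% of all. The 55 peaks of the list were 35 at ends and 20 inside. Strongest end peaks had a median fold of 7.07 for the 30 members and 6.39 for all 8240 genes with one. When only peaks whose −log10 q reached 5 were kept, the order turned, with medians of 7.34 for members and 7.65 for all genes. The median number of fragments was 13 in both groups over all peaks. A −log10 q of at least 10 was reached by 33.3% of the 30 members and 34.2% of the 8240 genes. The share of genes with a peak was thus higher among members, and the quartiles of fold overlapped widely (6.48 to 8.59 in members, 5.04 to 8.45 in all genes).

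**Figure D1:**
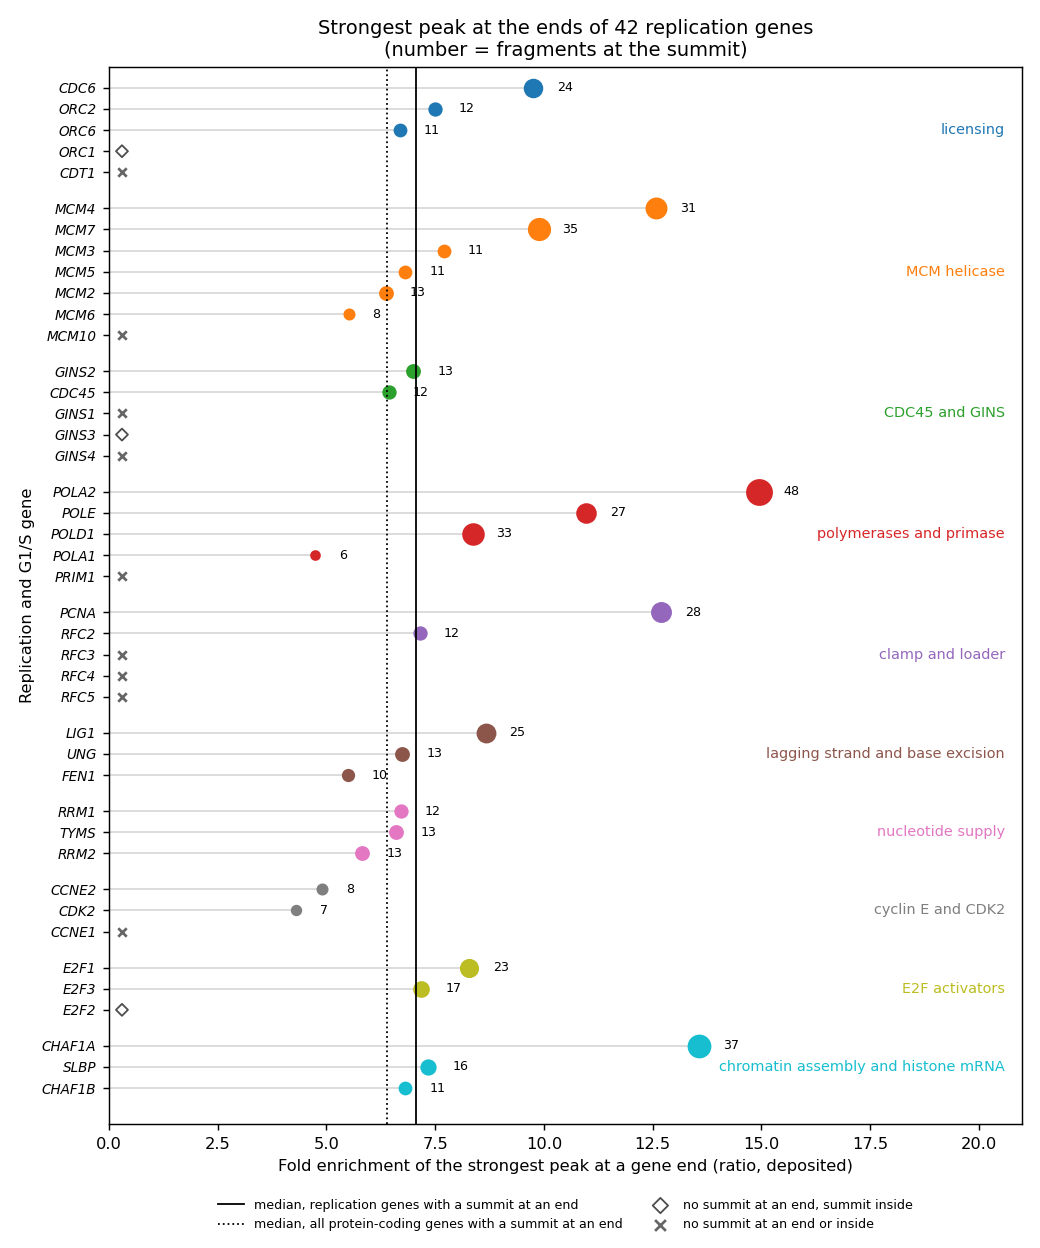
Deposited fold enrichment of the strongest peak at an end of each replication gene, by role. Dot area and the printed number give the fragments at the summit, and the lines mark medians of 7.07 (replication genes) and 6.39 (all protein-coding genes). POLA2, CHAF1A, PCNA and MCM4 stand farthest to the right, while 12 genes have no summit at an end.

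Role groups hold 3 to 7 genes, so their counts are descriptions beside the 41.5% of all protein-coding genes with an end peak and set no group apart. Licensing genes had an end peak in 3 of 5 cases, against that 41.5%. CDC6, the loader ATPase that works with CDT1, was highest, its peak spanning 40287530 to 40287909 of chromosome 17. The fold there was 9.74 on 24 fragments (interval 15.4 to 35.7). ORC2, a core subunit of the origin recognition complex, had a fold of 7.49 on 12 fragments. ORC6, its smallest subunit, had a pair of peaks upstream of its start, each with a fold of 6.69 on 11 fragments. The nearer record end for both was VPS35, a cargo-sorting gene, 52 and 211 bp away. ORC1, the subunit that cycles with the cell cycle, was missed at its record ends, yet a summit with a fold of 5.93 on 9 fragments lay at -74 bp from its listed transcript start, a negative distance being upstream. The ORC1 record runs 5006 bp past that summit, which also lay 105 bp from a record end of PRPF38A. CDT1 had no summit in or near its record, and the closest lay 2696 bp away.

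All 6 genes of the MCM2 to MCM7 helicase ring had a peak at an end. MCM4 had the strongest, spanning 47960738 to 47960983 of chromosome 8, at fold 12.6 and 31 fragments (interval 21.1 to 44.0). A second MCM4 peak with a fold of 5.21 had its summit 34 bp from PRKDC, the catalytic subunit of DNA-dependent protein kinase, whose record starts beside MCM4. MCM7 followed at fold 9.88 and 35 fragments (24.4 to 48.7), spanning 100101189 to 100101859 of chromosome 7. A weaker MCM7 peak, with a fold of 4.58 on 16 fragments, lay 9 bp past another listed start of the gene and 49 bp from AP4M1, an adaptor complex gene. The remaining ring genes lay lower: MCM3 at a fold of 7.70 on 11 fragments, MCM5 at 6.82 on 11, MCM2 at 6.37 on 13 and MCM6 at 5.51 on 8. The count interval of MCM6 (3.45 to 15.8) overlapped those of MCM2, MCM3 and MCM5, so their order is not settled. The intervals of MCM4 and MCM7 lay above that of MCM6, on higher local backgrounds (1.55 and 2.65 fragments, against 0.633). MCM10, a separate replication factor that is not in the ring, had no peak, and the nearest summit on chromosome 10 lay 974701 bp from its record.

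The activators of the ring had an end peak in 2 of 5 cases, a share near the 41.5% of all protein-coding genes. CDC45 had a fold of 6.43 on 12 fragments, with the summit 8 bp past a listed start and 281 bp from UFD1, a protein-degradation cofactor. Of the 4 GINS subunits, 1 had a peak at an end. This was GINS2, spanning 85688924 to 85689185 of chromosome 16, at fold 6.996 and 13 fragments (interval 6.92 to 22.2). GINS3 had no end peak, but had summits 3819 and 4215 bp past its start with folds of 5.24 and 6.95. GINS1 and GINS4 had none, the nearest summits lying 11505 and 33063 bp from their records. The missing GINS genes are undetected at this depth, and the difference from GINS2 was not tested.

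Polymerase genes held the strongest peak of the list. POLA2, the accessory subunit of polymerase alpha, had a fold of 15.0 on 48 fragments (interval 35.4 to 63.6), spanning 65261745 to 65262384 of chromosome 11. By fold it ranked 106 among the 8240 protein-coding genes with an end peak. POLE, the catalytic subunit of the leading-strand polymerase, had a fold of 11.0 on 27 fragments (17.8 to 39.3), spanning 132687114 to 132687750 of chromosome 12. Its summit also lay 90 bp from PXMP2, a peroxisomal membrane gene, and POLE held 3 further summits inside the gene with folds of 3.97 to 5.34. POLD1, the catalytic subunit of polymerase delta, had a fold of 8.36 on 33 fragments (22.7 to 46.3), spanning 50383864 to 50384362 of chromosome 19. Its background of 3.07 fragments was the highest of the members. POLA1, the catalytic subunit that partners POLA2, had only 6 fragments at its start (fold 4.75, interval 2.202 to 13.1), and a stronger peak of fold 7.46 on 10 fragments 15430 bp inside. The count intervals of POLA2 and POLA1 did not overlap. PRIM1, the primase catalytic subunit of the same complex, had no summit, the nearest being 6090 bp away.

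At the clamp and its loader, PCNA was high and most loader subunits had nothing called. PCNA had a fold of 12.7 on 28 fragments (interval 18.6 to 40.5) beside the outer end of its record, spanning 5126545 to 5126974 of chromosome 20. That summit lay at -103 bp from a listed start and 283 bp from CDS2, a phospholipid synthesis gene. A further PCNA peak of nearly the same size, with a fold of 11.9 on 25 fragments (16.2 to 36.9), lay inside the record. It was at -223 bp from a second listed start of PCNA and 212 bp from PCNA-AS1, an antisense RNA gene. The 2 PCNA intervals overlapped almost fully. Of RFC2 to RFC5, the loader subunits in the list, 1 of 4 had a peak: RFC2, with a fold of 7.14 on 12 fragments. RFC3, RFC4 and RFC5 had no summit in or at the gene, and the nearest lay 275594, 5029 and 47261 bp from their records.

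All 3 genes of lagging-strand completion and uracil removal had an end peak. LIG1, the ligase that joins Okazaki fragments, had the widest peak at an end, 959 bp spanning 48169728 to 48170686 of chromosome 19, with a fold of 8.66 on 25 fragments (interval 16.2 to 36.9). Its summit was nearer to the record end of ZSWIM9, 40 bp away, than to the LIG1 start, from which it lay at -296 bp. UNG, the uracil-DNA glycosylase, had a fold of 6.75 on 13 fragments, at -157 bp from the second of its listed starts. FEN1, the flap endonuclease, had a fold of 5.50 on 10 fragments, at -146 bp from its start and 166 bp from TMEM258, a subunit of the oligosaccharyltransferase.

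Nucleotide supply genes each had an end peak, and these were of similar height. RRM1, the large subunit of ribonucleotide reductase, had a fold of 6.71 on 12 fragments, spanning 4094685 to 4094864 of chromosome 11. TYMS, thymidylate synthase, had a fold of 6.61 on 13, and RRM2, the small reductase subunit, had 5.82 on 13. In contrast to most members, all 3 had their strongest summit past the start, by 87 bp in RRM1, 349 bp in TYMS and 78 bp in RRM2.

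Cyclin E and its kinase had the lowest median fold of the 10 role groups, at 4.61. CCNE2 had a fold of 4.91 on 8 fragments (interval 3.45 to 15.8), spanning 94895638 to 94895852 of chromosome 8. That summit lay 1 bp from the end of NDUFAF6, a complex I assembly gene, and inside the CCNE2 record, 893 bp from its end. CDK2 had a fold of 4.30 on 7 fragments, with its summit 82 bp outside the CDK2 record and 39 bp from the end of PMEL, a melanosome gene. For both peaks the nearest record end was that of the other gene. CCNE1, the other E-type cyclin, had no summit, and the nearest lay 20745 bp away.

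Of the activating E2F genes, whose products switch on S-phase genes, 2 of 3 had an end peak. E2F1 had a fold of 8.28 on 23 fragments (interval 14.6 to 34.5), spanning 33686433 to 33686712 of chromosome 20. E2F3 had a fold of 7.18 on 17 fragments, at -337 bp from its start. E2F2 had no end peak and a single inside summit with a fold of 4.54 on 7 fragments.

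Chromatin assembly and histone mRNA genes all had an end peak. CHAF1A, the large subunit of the chaperone that deposits histones behind the fork, had a fold of 13.6 on 37 fragments (interval 26.1 to 51.0), spanning 4402338 to 4402564 of chromosome 19. Its partner CHAF1B had a fold of 6.82 on 11 fragments (5.49 to 19.7), an interval that did not overlap that of CHAF1A. The local backgrounds differed too, at 1.80 fragments for CHAF1A and 0.761 for CHAF1B. SLBP, which binds the stem-loop of histone mRNA, had a pair of peaks with folds of 7.34 and 6.78 on 16 and 14 fragments, at -437 and 58 bp from its start.

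Of the 30 members with an end peak, 5 (POLA2, CHAF1A, PCNA, MCM4 and POLE) were among the highest 824 of the 8240 genes by fold, the top 10%. In 5 members (CCNE2, CDK2, FEN1, MCM6 and POLA1) the strongest end peak rested on 10 fragments or fewer, and in 10 members on 20 or more. The quartiles of fragments were 11 and 24.75 in the 30 members, and 9 and 20 in the 8240 genes.

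Peaks sat at the start of these genes and not at the other end. Strand could be taken from the RefSeq promoter table for 37 members, and CCNE2, CDK2, GINS4, MCM4 and MCM5 were not placed. A summit lay within 1 kb of a listed start in 27 of 37 members (73.0%), against 44.5% of 15841 protein-coding genes. At the opposite end it was 0 of 37, against 4.8% of the 15841. The strongest start summit lay before the start in 21 of 27 members (77.8%), against 68.7% of 7042 genes. Its median position was -127 bp in members (quartiles -191.5 and -50), against -74 bp in all genes (quartiles -167 and 39). In 19 of 27 members (70.4%) it fell between 250 bases before and 50 after the start, against 62.9% of the 7042.

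**Figure D2:**
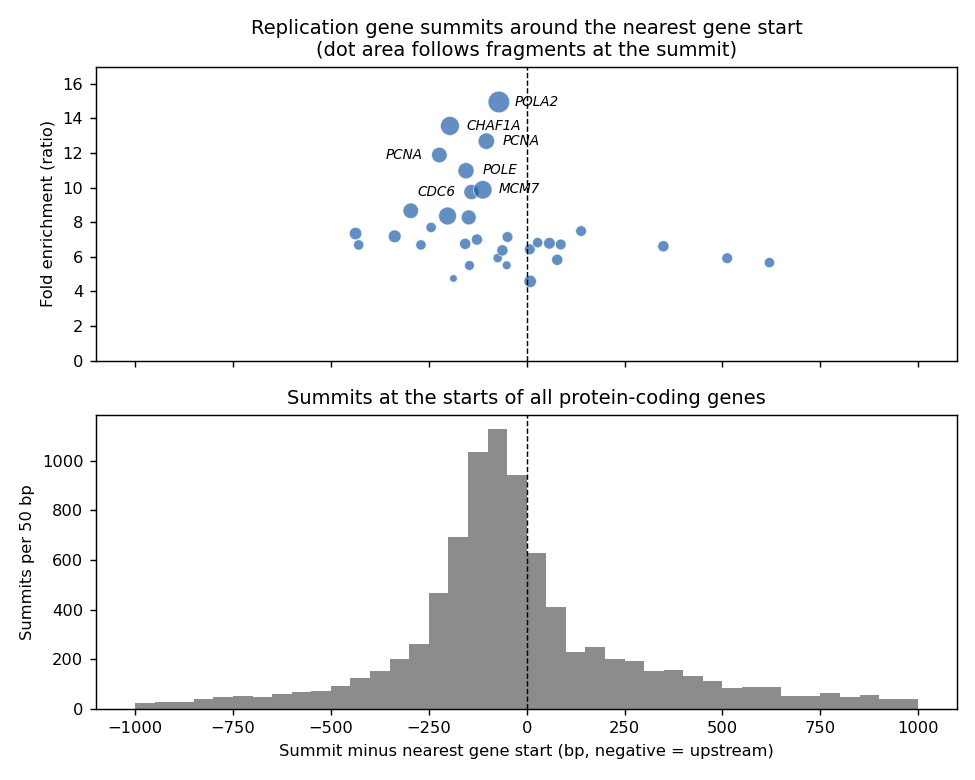
Upper panel, each replication gene summit within 1000 bp of its nearest listed start, by signed distance in bp (negative is upstream) and deposited fold. Lower panel, summits per 50 bp at the starts of all protein-coding genes. The labelled high peaks all lie upstream of the start. Among the summits drawn, the 7 of highest fold belong to POLA2, CHAF1A, PCNA (2 summits), POLE, MCM7 and CDC6. Genes without a listed start are not drawn, among them MCM4 with a fold of 12.6.

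Some of these peaks lay near the record end of another gene too, and by position such a peak cannot be given to either. The strand of the neighbour was not used, so its close end can be a start or the opposite end. Shared promoters as such were not counted. For 13 of the 30 members with an end peak (43.3%), the strongest end summit lay within 1 kb of the record end of another protein-coding gene, against 30.8% of the 8240. Beside those already named, the neighbours were TPRA1 (118 bp from the MCM2 summit), NR1H2 (733 bp from that of POLD1) and LOC124901482 (801 bp from that of E2F3). Genes with such a close neighbour had an end peak more often in general. Among members with a close neighbour, 16 of 18 (88.9%) had one, against 60.1% of 5658 protein-coding genes. Among members without one, 14 of 24 (58.3%) did, against 34.1% of 14204. In both strata the share in members was above that in all genes, on few members. By the 1 kb rule, a gene with a close neighbour can also count the peaks of that neighbour. The part of close neighbours in these peaks was not tested.

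Promoter composition moved with the presence of peaks too. The median GC content of the 300-base promoter window was 66.0% in the 37 members, against 62.7% in 15841 protein-coding genes. In the 4 quartiles of GC from low to high, a summit at a start was found in 1 of 2, 7 of 11, 10 of 13 and 9 of 11 members. Over all protein-coding genes the shares in those quartiles were 16.4%, 42.6%, 57.0% and 60.7%. Member shares were higher in each quartile, at 1 of 2, 63.6%, 76.9% and 81.8%, on few genes. The part of GC content in these peaks was not tested.

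E2F-type letters were frequent in these promoters. An E2F match (TTCGCGC or TTGGCGC, either strand, from 250 bases before to 50 after the start) was found in 18 of 37 members (48.6%), against 6.94% of protein-coding promoters and 9.19% of those with a summit at the start. Of members with a summit at the start, 15 of 27 had it, and of those without, 3 of 10 (9.19% and 5.14% of protein-coding genes). With TTCCCGC and TTGGCGG added, a choice made after the promoters were read, 30 of 37 members (81.1%) had a match, against 18.3%. That wider form was found in 21 of 27 members with a start summit and 9 of 10 without. Over protein-coding genes these shares were 23.3% and 14.3%, in the opposite order to members. The CCAAT box was found in 21 of 37 members (56.8%), against 36.4% of protein-coding promoters and 39.0% of those with a start summit. It overlapped an E2F match in 5 of the 14 member windows with both. The overlap was not counted over all promoters.

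Letters searched as possible sites of either TCF4 did not move one way in these promoters. The general E-box CANNTG, the site type of the E protein, was found in 23 of 37 members (62.2%), against 64.6% of protein-coding promoters. The palindromic E-box CACGTG, which is included in CANNTG, was found in 4 of 37 (10.8%), against 8.83%. It was the only form of CANNTG counted by itself, so forms that E proteins may prefer were not set apart. In the 100 bases nearest the start CACGTG was found in 3 of 37 (8.11%), against 3.41%. Of the sequences above, CHAF1A held CACGTG at -59 and MCM7 at -25. With a start summit 4 of 27 members held CACGTG, and without one 0 of 10 (10.6% and 7.38% of protein-coding genes). For CANNTG these were 16 of 27 and 7 of 10 (59.4% and 68.7%). In the 100 bases, CANNTG was found in 10 of 27 and 1 of 10 (25.4% and 33.0%). These splits rest on few genes and were not tested. A TCF/LEF match (CTTTGAT or CTTTGAA) was found in 0 of 37, against 5.48% of protein-coding promoters and 3.44% of those with a start summit. The CHR letters TTTGAA, known from genes of late cell cycle and contained in CTTTGAA, were found in 2 of 37 (5.41%). They were in 12.2% of protein-coding promoters and 7.92% of those with a start summit. The GC box GGGCGG was found in 28 of 37 (75.7%), against 58.3% of protein-coding promoters. The member share was near the 74.8% of protein-coding promoters with a start summit. Absence of a match says only that these letters are not in the window.

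**Figure D3:**
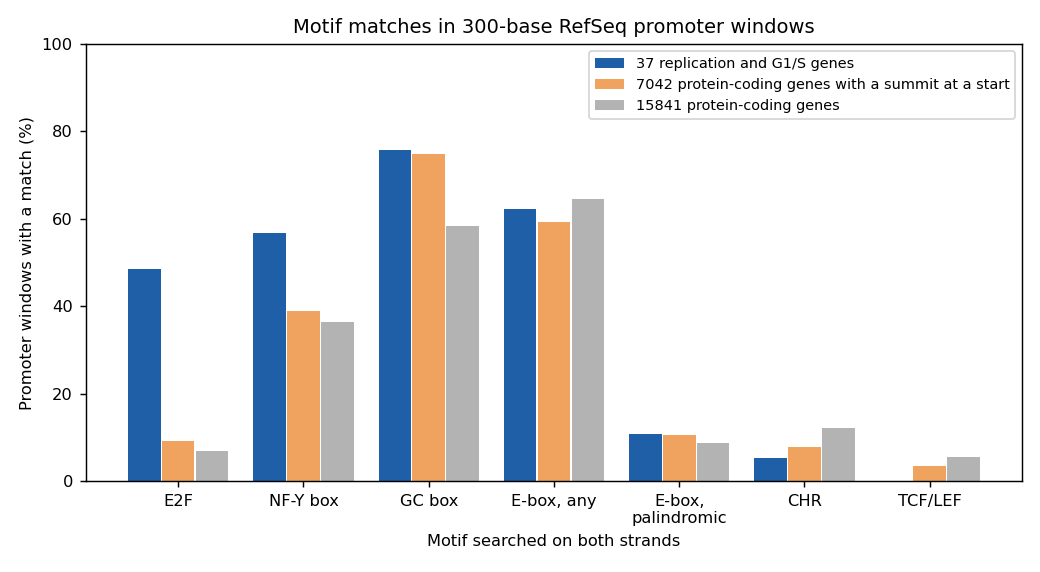
Share of RefSeq promoter windows with at least 1 match on either strand, for 37 replication and G1/S genes, 7042 protein-coding genes with a summit at a start and 15841 protein-coding genes. The NF-Y box is the CCAAT box. The E2F bars show the widest gap, at 48.6%, 9.19% and 6.94%, and the replication genes have no TCF/LEF match.

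Peaks inside the genes were fewer and lower. The 20 inside peaks, more than 1 kb from both ends, lay in 15 of 42 members (35.7%), against 25.5% of all protein-coding genes. They had a median fold of 5.12 and 9 fragments, against 6.82 and 13 for the 35 end peaks. POLE held 3, while GINS3, LIG1 and PCNA held 2 each. Some of these lay near a listed start that is not at the record end. The ORC1 summit was at -74 bp, and the PCNA summits at -223 and 512 bp, from such starts. Apart from the PCNA peak at -223 bp, the highest inside peak was that of POLA1, with a fold of 7.46. Exons and introns were not distinguished.

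Other genes of the pathway showed a similar share. Of 56 further replication and G1/S genes, 37 (66.1%) had a peak at an end, against 41.5% of all protein-coding genes, with a median fold of 7.30. TOP1, the topoisomerase that relieves twist ahead of the fork, was highest at a fold of 19.2 on 50 fragments, rank 13 of 8240. ASF1B, a histone chaperone, had a fold of 11.3 on 39 fragments, and ATAD2, a chromatin ATPase, 11.2 on 22. TK1, thymidine kinase, had 10.1 on 25, and WDHD1, which couples the helicase to polymerase alpha, 9.45 on 13. The fork protection factor TIMELESS had 9.24 on 17, the maintenance methyltransferase DNMT1 8.97 on 18, and DBF4, the regulatory partner of CDC7, 8.72 on 12. No summit lay at an end in 19 of the 56, among them CDC7, DNA2, DSCC1, E2F4, E2F6, E2F8, MCM8 and MCMBP. In this list, 33 of 44 genes with strand had a summit at a start, against 44.5% of 15841 protein-coding genes. A summit at the opposite end was found in 0 of 44, against 4.8% of the 15841, itself a low share. That difference was not tested.

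The share of members with a peak depended on how strict the peak list was made. With a −log10 q of at least 5 it was 25 of 42 (59.5%), against 27.4% of all genes. Raising that minimum to 10 left 10 of 42 (23.8%), against 14.2%. Requiring 20 fragments at the summit left the same number, against 11.1%. The 5 members lost first were CCNE2, CDK2, FEN1, MCM6 and POLA1. The 10 with a −log10 q over 10 were POLA2, CHAF1A, PCNA, MCM4, POLE, MCM7, CDC6, LIG1, POLD1 and E2F1. Leaving out the 10% of peaks with the densest backgrounds gave 29 of 42, against 37.6%, with POLD1 lost. A window of 500 bp gave 29 of 42, against 36.6%, with CCNE2 lost, and one of 2000 bp gave 30, against 45.7%. Counting any overlap of the peak gave 30, against 42.2%. A summit at an end or inside was found for 10 members at a −log10 q of 10 (17.9% of all genes), for 10 at 20 fragments (14.1%) and, counting only summits inside the record, for 21 (39.0%). At a start it was found for 9 of 37 members at a −log10 q of 10, against 15.3%, and 9 at 20 fragments, against 11.6%. When a peak was counted only for the gene with the nearest end, 25 of 42 members kept one, against 36.5% of all genes, and CCNE2, CDK2, LIG1, ORC6 and POLE were lost.

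**Figure D4:**
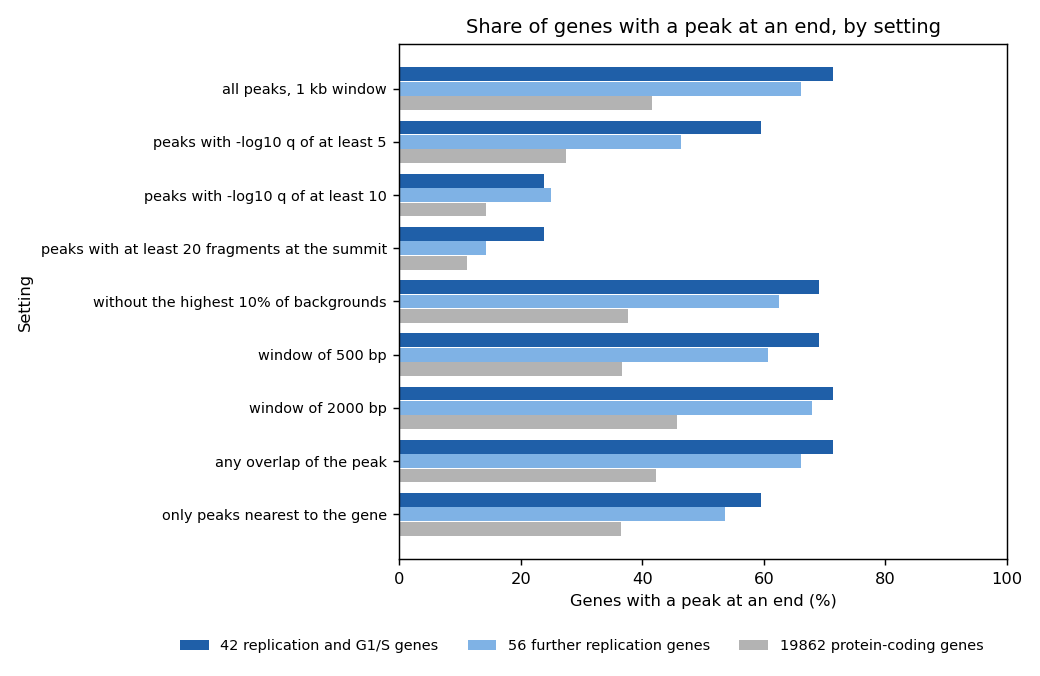
Percentage of genes with a peak at an end under each setting, for the 42 replication and G1/S genes, 56 further replication genes and 19862 protein-coding genes. Both replication lists lie above all protein-coding genes under each of the 9 settings drawn, by the least margin among further genes at 20 or more fragments (14.3% against 11.1%).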

How the data were processed

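DNA isolated with a TCF4 antibody (1 library) or IgG (1 library) from CAL-27 spheres was sequenced. The submitters' processing notes name Bowtie2 2.3.5.1, SAMtools, MACS2 2.2.7.1 and hg38, with settings and the caller's control not given in the sources used here. The deposited peak list gives a fold enrichment (a ratio), −log10 p and −log10 q of each summit, and a score that is 10 times −log10 q with decimals dropped.

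Fragments n and background b were solved from fold = (n + 1) / (b + 1) and a Poisson upper tail, and all 26642 peaks were met within 0.0001 of the −log10 p. In simulated data, 500 of 500 peaks and 200 of 200 planted genes were recovered. Genes, starts and promoter sequences came from RefSeq tables for GRCh38.p14, without scaffolds (58957 records). Motif windows were 1 per gene, at the start nearest the record's end. Members, lists and motifs were chosen with earlier results of these data known. By rule, the strongest of each role group and the 10 highest members received coordinates, and the wider list gave its 8 highest and 8 without an end peak. Alternatives changed thresholds, windows, overlap, gene assignment and the densest backgrounds. Computing used pandas 2.3.3, SciPy 1.17.1 and NumPy 2.4.6 under Python 3.11.15, with plots from Matplotlib 3.10.9.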

Additional observations from a re-analysis of the deposited data

How the results depend on the processing

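No paired analysis was possible because each antibody has 1 library and 1 peak list was analysed. Counts of members with a peak at an end stayed within 1.5 times of 30 under 6 of 8 alternatives (25 to 30 of 42). They were 10 with a −log10 q of at least 10 and 10 with at least 20 fragments at the summit. At those 2 thresholds, members with a peak at an end or inside also numbered 10 each, members with a start summit 9 each, and further replication genes 14 and 8. The median fold of members was then 10.4 in both, against 9.32 and 9.42 for all genes. With a −log10 q of at least 5 the members' median fold was below that of all genes (7.34 against 7.65). Counting only summits inside the record gave 21 members, against 39.0% of all genes. In the 100 bases nearest the start, fewer bases by construction, the member share was 27% for the CCAAT box (10.2% of protein-coding promoters), 29.7% for CANNTG (29.6%), 40.5% for the GC box (33.8%) and 0.0% for CHR (3.3%). The added E2F letters gave 81.1%, against 48.6%. The few fragments per peak, a median of 13 at member ends, limit how far members can be ordered by height.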
